A study of Mus musculus with 4 samples.

Results

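The nuclear genes of oxidative phosphorylation were followed in LSK cells, a bone marrow fraction that lacks lineage markers, carries Sca-1 and c-Kit, and contains hematopoietic stem cells (HSCs) and early progenitors, with and without the homeobox transcription factor Meis1. Genes were taken by name from the array: every gene whose name begins with *Nduf*, *Uqcr*, *Atp5* or *Cox4* to *Cox8*, together with *Sdha*, *Sdhb*, *Sdhc*, *Sdhd* and *Cycs*. This rule gave 89 of the 28095 gene names on the array and 131 of its 41174 probes. By complex, 37 genes belonged to complex I (7 core and 30 accessory subunits), 4 to complex II, 7 to complex III, 17 to complex IV and 15 to complex V, and 1 gene encoded cytochrome c. The other 8 carry a family name but encode no subunit, and they were kept apart. They are the complex I assembly factors *Ndufaf1*, *Ndufaf2*, *Ndufaf3* and *Ndufaf4*, and *Cox7a2l*, *Cox4nb*, *Atp5s* and *Atp5sl*. *Ndufa4* was counted in complex I by its name, although its product is also known as a subunit of complex IV. Each gene is represented by its brightest probe.

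Meis1-KO cells came from *Mx1-Cre* positive Meis1fl/fl mice and Meis1-WT cells from *Mx1-Cre* negative Meis1fl/fl mice, all of the C57BL/6J background and 4 to 8 weeks old at injection. Per the labels, mice of both genotypes received poly(I:C), at 1.5 ug per g body weight in 4 injections, whereas the study's description of the arrays has sham-treated controls. *Mx1-Cre* is driven by an interferon-responsive promoter, which poly(I:C) activates and which is not restricted to hematopoietic cells. Only the Meis1-KO mice carried *Mx1-Cre*, so effects of Meis1 loss and of Cre cannot be told apart here. If the controls were sham-treated, the same holds for effects of poly(I:C). LSK cells of several mice were pooled for each array, 10 ng of RNA was amplified per pool, and 2 arrays were hybridized per genotype. Replicate 1 of both genotypes shared a slide (slide 1), and so did replicate 2 (slide 2).

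Oxidative phosphorylation is the process by which mitochondria make ATP. Complexes I and II pass electrons from NADH and succinate to ubiquinone, complex III passes them on to cytochrome c, and complex IV passes them to oxygen. Complexes I, III and IV pump protons across the inner membrane, and complex V, the ATP synthase, uses the return flow of protons to make ATP. Quiescent HSCs are known to rely on glycolysis more than their progeny do, and mitochondrial respiration is known to increase as they leave quiescence and differentiate.

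Values are log2 of the background-subtracted signal minus the 75th percentile of the same array, so that 0 marks a probe at that percentile, and a difference of 1 is 2-fold. The second Meis1-KO array stood apart from the other 3. It had 49.2% of its spots well above background, against 54.7% to 57.4% on the others, and its 75th percentile was at a signal of 90.1, against 147 to 154. Across probes, which are not independent replicates, its correlation with each other array was r = 0.891 to 0.916, against 0.956 to 0.967 between the remaining arrays. The medians of the set and of its complexes are therefore also given without this array. The brighter of the probes for *Meis1* (A_52_P670612, mm9 chromosome 11, 18911247 to 18911306) read 0.25 and 0.22 on the Meis1-KO arrays and 1.02 and 1.45 on the Meis1-WT arrays, with no overlap. The other probe (A_52_P26195, 18781206 to 18781265) read -2.46 and -3.53 against -1.55 and -1.06, and it was not well above background on the second Meis1-KO array. Whether these probes lie in the deleted exon was not analysed here. The limma unadjusted p was 0.061 for the brighter and 0.019 for the other, with an adjusted p of 0.98 for each. Over all tested probes, 10.8% had both Meis1-KO arrays below both Meis1-WT arrays.

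LSK cells expressed nearly the whole set. A total of 85 genes were well above background on all 4 arrays and *Cox4i2* was on 3 of them, whereas the testis- and muscle-type genes *Cox7b2*, *Cox8b* and *Cox8c* were on none. The probes were bright, as 54 of the 86 tested genes lay in the brightest decile of all tested probes. No gene of the set was called at the thresholds of the study, more than 2-fold with a p below 0.01 before adjustment (here the p of limma), where 0.732% of all 22007 tested probes were (0.136% higher and 0.595% lower). With the slide as a block, the count was again 0 of 86, where 1.96% of all probes were called (0.582% higher and 1.38% lower). Counting p under 0.05 before adjustment alone, 1 gene (*Cox6a2*) was found, against 2.81% of all probes, and the same gene with the block, against 6.01%. No probe on the array had an adjusted p under 0.05 without the block, and 0.191% did with it. The lowest Benjamini-Hochberg adjusted p in the set was 0.98 by limma and 0.64 with the slide as a block.

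The slides gave different pictures. On slide 1, the genes lay close to 0: the median difference, Meis1-KO minus Meis1-WT, was -0.06 (quartiles -0.16 and 0.03), and 58 of 86 genes were lower, where 46.7% of all tested probes were. On slide 2, the median difference was 1.07 (quartiles 0.70 and 1.25), and 82 of 86 genes were higher, where 56.1% of all probes were. A total of 45 genes were more than 2-fold higher on slide 2, against a background of 13.9%, and only *Cox6a2* and *Ndufaf3* were more than 2-fold apart on slide 1, against 6.69%. Over both slides the median was 0.49, with a median of 0.08 over all probes. The second Meis1-KO array was the highest of the 4 arrays for 78 of the 86 genes, against 45.1% of all probes. The second Meis1-KO array minus the first had a median of 1.12 over the genes (-0.81 to 2.29). For the Meis1-WT arrays this median was 0.05, with genes on both sides of 0 (-0.79 to 1.27). When the second Meis1-KO array was left out, the median was -0.09, and the medians of complexes I to V were -0.09, -0.06, -0.16, -0.08 and -0.12. Of the 81 genes higher over both slides, 51 were lower without that array. In all, 26 genes were higher on both slides (30.3% of all probes) and 2, *Cox6a2* and *Ndufs8*, were lower on both (20.9%). Both Meis1-KO arrays lay above both Meis1-WT arrays for 13 genes, against a background of 16% of all probes, and below both for *Cox6a2* alone, against 10.8%. Hence a higher signal for these genes was measured on 1 of 2 Meis1-KO arrays, and the difference between genotypes was smaller than the spread between the Meis1-KO arrays. Each pool was read on 1 array, so a difference of the pool and of the array cannot be told apart. Over all tested probes, the slide 2 median also rose with brightness, from -0.49 in the dimmest decile to 0.63 in the brightest. With 2 arrays per genotype, the smallest two-sided p of an exact permutation test is 0.333.

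**Figure D1:**
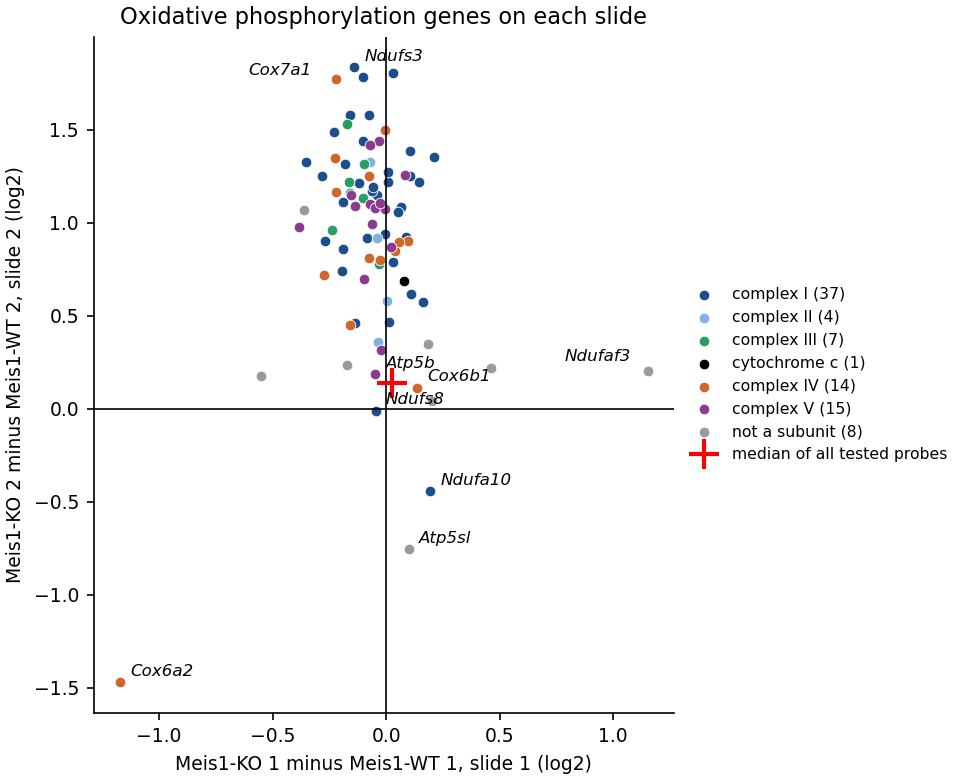
Difference between Meis1-KO and Meis1-WT on slide 1 (horizontal axis, log2) and slide 2 (vertical axis, log2) for the 86 tested genes, colored by complex, with the median of all 22007 tested probes as a red cross. Most genes form a column near 0 on slide 1 and around 1 on slide 2, with *Cox6a2* alone far into the lower left.

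The size of the slide 2 difference depended on how arrays were scaled, and its direction did not. It was 1.30 with median scaling, 0.47 with quantile normalization, 0.49 with cyclic loess and 0.77 with normexp background correction, where the median of all probes on slide 2 was 0.37, 0.04, 0.00 and 0.18. The number of genes more than 2-fold higher on slide 2 was 62, 7, 9 and 18 in the same order. On slide 1, the median of the set lay between -0.19 and -0.01 under these settings. Complexes I to V kept a slide 2 median above 0 in each of them, the smallest being 0.25 for complex IV with quantile normalization. Of the 81 genes higher over both slides, 6 turned lower with quantile normalization, 8 with cyclic loess and 7 with normexp. Among the subunits listed as core and the isoform pairs, these were *Sdha*, *Atp5b*, *Atp5g2*, *Cox6a1*, *Cox6b1* and *Cox6b2* in at least 1 of these settings. *Ndufs8* turned positive with median scaling and normexp.

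Complex I is the largest complex and the entry point for electrons from NADH. Of its 37 genes, 35 were higher on slide 2 (median 1.17) and 22 were lower on slide 1 (median -0.05). The core subunits, which carry the flavin and the iron-sulfur clusters or form the ubiquinone site, differed from each other. *Ndufs3*, a core subunit near the ubiquinone site, read 2.92 and 5.13 on the Meis1-KO arrays and 3.06 and 3.30 on the Meis1-WT arrays. Only the second Meis1-KO array was high, by 3.57-fold on slide 2, the highest of the 86 genes, and the difference over both slides was 0.85 ± 0.76 (SE; limma adjusted p = 0.98), or -0.26 without that array. *Ndufv1*, which binds the flavin that accepts electrons from NADH, read 3.36 and 4.98 against 3.46 and 3.54, with the same single high array. *Ndufs8*, an iron-sulfur subunit, read -0.44 and 0.14 against -0.40 and 0.15. It was level on both slides (-0.05 and -0.01), since replicate 2 of each genotype was higher than replicate 1. *Ndufs1* and *Ndufv2*, iron-sulfur subunits of the hydrophilic arm, were 0.58 and 0.61 higher on slide 2 and 0.16 and 0.11 higher on slide 1. For *Ndufs1* the direction depended on the probe, as a dimmer one designed to a cDNA clone (A_51_P273817) was lower on both slides (-0.14 and -0.21). *Ndufs7*, an iron-sulfur subunit next to the ubiquinone site, read 1.36 and 2.33 against 1.25 and 1.08, so that both Meis1-KO arrays lay above both Meis1-WT arrays, by 0.11 on slide 1 and 1.25 on slide 2.

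Accessory subunits of complex I surround the core and are needed for its assembly and stability. Of the 30, 29 were higher on slide 2 (median 1.18), 21 of them by more than 2-fold, and 19 were lower on slide 1 (median -0.06). *Ndufb5*, a subunit of the membrane arm, read 2.50 and 3.92 on the Meis1-KO arrays and 2.47 and 2.12 on the Meis1-WT arrays. Its difference of 0.92 ± 0.59 (SE; limma adjusted p = 0.98) was the highest of the set, but it was 0.03 on slide 1 and 1.80 on slide 2, and 0.21 without the second Meis1-KO array. *Ndufb6*, of the same arm, read 4.00 and 5.89 against 3.78 and 4.53, and it was higher on both slides, by 0.21 and 1.35. The second Meis1-WT array lay above the first Meis1-KO array, so the groups overlapped. *Ndufa5*, of the hydrophilic arm, read 3.99 and 5.89 against 4.09 and 4.11, and *Ndufb9* read 3.24 and 5.53 against 3.40 and 3.95. In both, the second Meis1-KO array was the only high one. *Ndufa10* was the exception among accessory subunits. It read 2.12 and 1.48 against 1.92 and 1.92, with a difference of 0.19 on slide 1 and -0.45 on slide 2, and its lowest value was on the second Meis1-KO array.

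**Figure D2:**
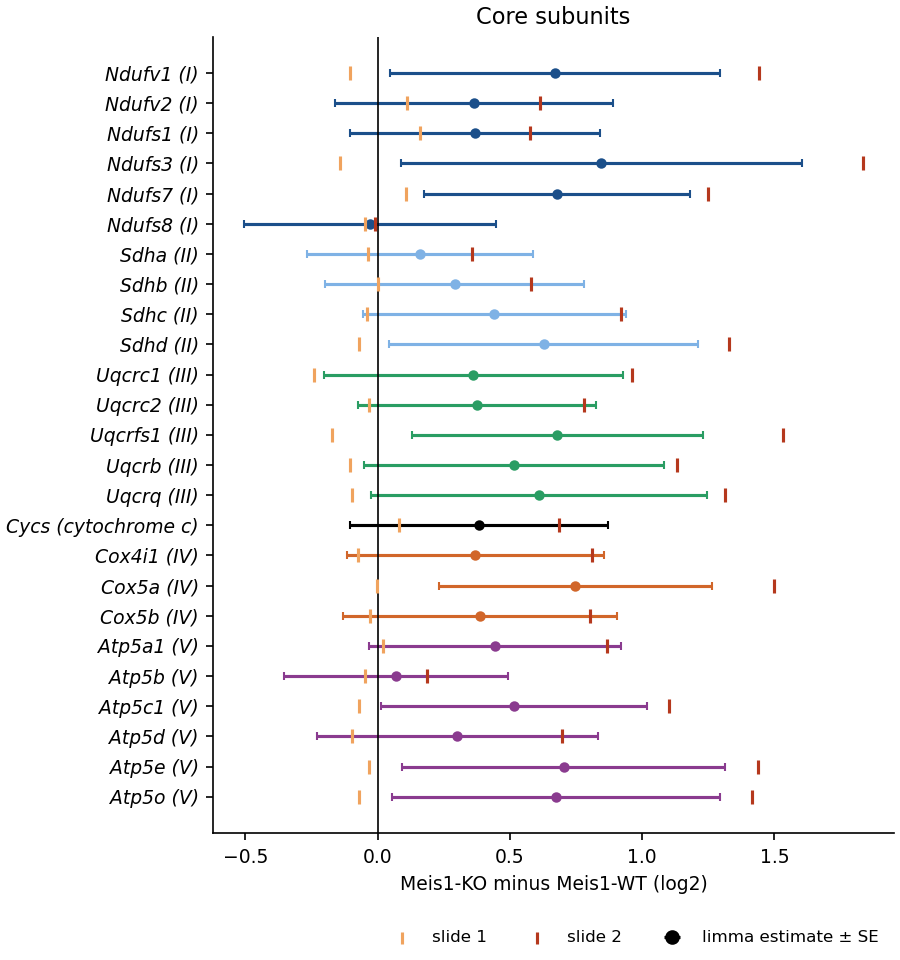
Difference between Meis1-KO and Meis1-WT (horizontal axis, log2) for 25 subunits listed as core in complexes I to V and cytochrome c (vertical axis, complex in parentheses). The list was drawn up here and also holds small subunits such as *Uqcrb* and *Uqcrq*. Points and bars are limma estimates ± SE over 2 arrays per genotype, and ticks are the difference on each slide: the slide 1 ticks lie within 0.25 of 0, and the slide 2 ticks spread up to 1.83.

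Complex II, succinate dehydrogenase, also belongs to the citric acid cycle and is the only complex with no subunit encoded in mitochondrial DNA. Its catalytic subunits showed the smaller slide 2 differences. *Sdha*, the flavoprotein that oxidizes succinate, read 2.38 and 2.65 on the Meis1-KO arrays and 2.41 and 2.29 on the Meis1-WT arrays, and *Sdhb*, the iron-sulfur subunit, read 1.79 and 2.64 against 1.79 and 2.06. The membrane anchors read 3.63 and 4.58 against 3.67 and 3.66 (*Sdhc*) and 4.86 and 6.29 against 4.93 and 4.96 (*Sdhd*). All 4 genes were therefore within 0.07 of level on slide 1 and highest on the second Meis1-KO array, by 0.36 to 1.33 on slide 2. The direction for *Sdha* depended on the probe. A second probe for the same RefSeq transcript (A_52_P109503) differed by 0.09 on slide 1 and -0.32 on slide 2, and a dim probe designed to a cDNA clone (A_52_P458708) differed by -0.23 on slide 1. *Ndufb8* of complex I likewise had a dim cDNA clone probe (A_52_P252539) at -0.24 on slide 1, where its brightest was at -0.08. On slide 2 the brightest was 1.58 higher. Neither dim probe was well above background on the second Meis1-KO array, so no slide 2 difference is given for them. Of 28 genes with more than 1 tested probe, 7 had probes that differed in sign over both slides (*Sdha*, *Ndufb8*, *Ndufs1*, *Ndufa11*, *Atp5g2*, *Atp5j2* and *Atp5s*), and *Sdha* and *Ndufb8* were the 2 whose probes also differed by more than 1, which rests on that array.

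Complex III, the cytochrome bc1 complex, was the most uniform. All 7 genes were lower on slide 1 (-0.24 to -0.03) and higher on slide 2 (0.78 to 1.53, median 1.16), so that none had the same sign on both slides. *Uqcrfs1*, the Rieske iron-sulfur protein that passes electrons toward cytochrome c, read 5.27 and 6.35 on the Meis1-KO arrays and 5.44 and 4.82 on the Meis1-WT arrays. *Uqcrc1*, a core protein, read 2.24 and 3.57 against 2.48 and 2.61, and *Uqcrc2*, the other core protein, read 5.02 and 5.46 against 5.05 and 4.68. In each, the second Meis1-KO array was highest, and the first lay within 0.25 of its Meis1-WT partner. *Uqcrb* and *Uqcrq*, small subunits near the ubiquinone sites, differed by 1.13 and 1.31 on slide 2 and by -0.10 each on slide 1. *Cycs*, cytochrome c, which carries electrons from complex III to complex IV and also activates caspases when released, read 4.53 and 5.39 against 4.45 and 4.70. It was higher on both slides (0.08 and 0.69), but the second Meis1-WT array lay above the first Meis1-KO array.

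**Figure D3:**
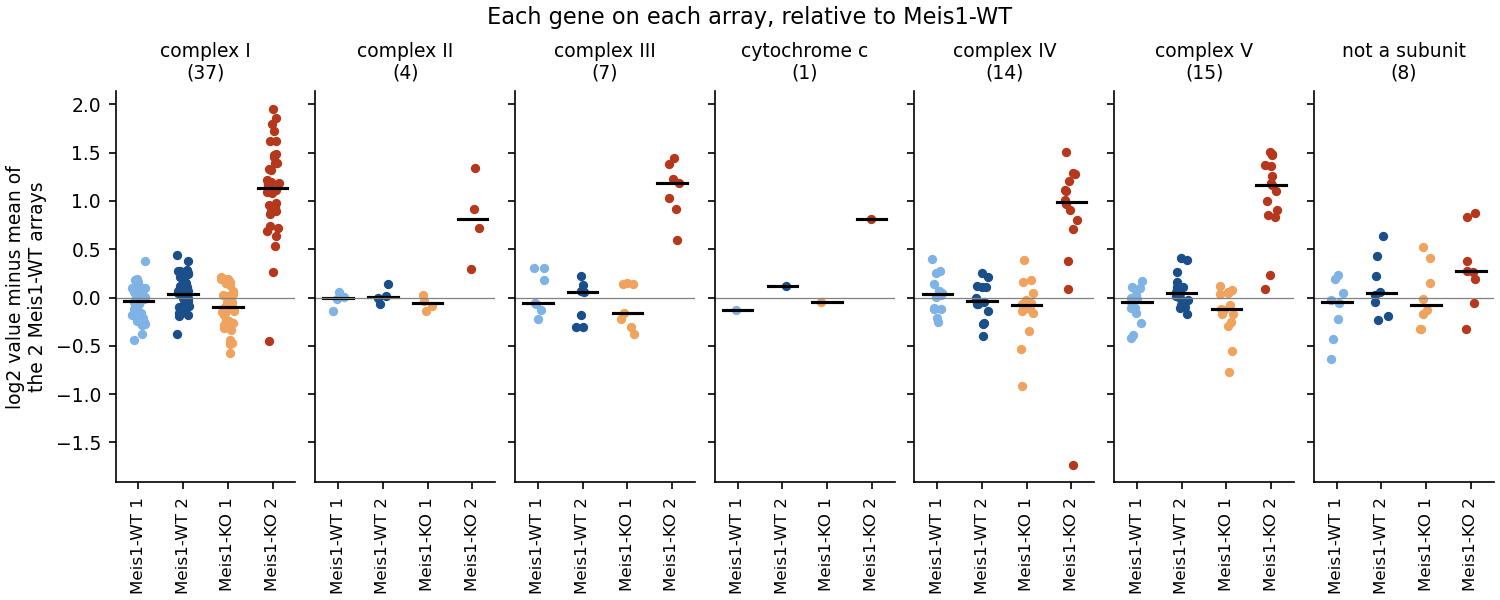
Log2 value of each gene on each of the 4 arrays (horizontal axis), minus the mean of the 2 Meis1-WT arrays for that gene (vertical axis), in 1 panel per complex with the number of genes in parentheses. Dots are genes and bars are medians: in every panel the second Meis1-KO array has the highest median, and in the panels of complexes I to V and cytochrome c the first Meis1-KO array lies near the Meis1-WT arrays.

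Complex IV, cytochrome c oxidase, reduces oxygen. Its nuclear subunits include isoform pairs in which a common gene is used in most tissues and another mainly in heart and skeletal muscle, testis or lung. The 10 common isoforms were all higher on slide 2 (median 0.87; 8 of them with quantile normalization or cyclic loess and 9 with normexp), and 7 were lower on slide 1 (median -0.05). *Cox5a*, which helps to regulate the enzyme, read 4.93 and 5.64 on the Meis1-KO arrays and 4.93 and 4.14 on the Meis1-WT arrays, a difference of 0.75 ± 0.52 (SE; limma adjusted p = 0.98), or 0.39 without the second Meis1-KO array. *Cox4i1*, an early-assembling subunit, read 6.21 and 7.08 against 6.28 and 6.27, and *Cox5b* read 6.54 and 7.59 against 6.57 and 6.79. These 3 genes were level on slide 1 and highest on the second Meis1-KO array. For *Cox5a*, the second Meis1-WT array was also lower than the first (a difference of -0.79). *Cox7b* (0.04 and 0.85) and *Cox8a* (0.06 and 0.89), small membrane subunits, were higher on both slides. *Cox6b1*, which faces the intermembrane space, was the only common isoform with almost equal values on all 4 arrays, at 2.08 and 2.01 against 1.94 and 1.89. Both Meis1-KO arrays lay above both Meis1-WT arrays for it, by 0.14 on slide 1 and 0.11 on slide 2, but the difference over both slides was -0.03 with cyclic loess and -0.03 with normexp.

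*Cox6a2*, the isoform of subunit VIa known from heart and skeletal muscle, was the only gene of the set clearly lower in Meis1-KO cells on both slides. Its probe (A_51_P509997, mm9 chromosome 7, 135349160 to 135349219) read -2.32 and -3.13 on the Meis1-KO arrays and -1.15 and -1.66 on the Meis1-WT arrays. The groups did not overlap, and all 4 arrays were well above background although the probe was dim, in brightness decile 3 of 10. The difference was -1.17 on slide 1 and -1.47 on slide 2, or -1.32 ± 0.50 in all (SE; limma unadjusted p = 0.037, adjusted p = 0.98; with the slide as a block, 0.019 and 0.64). With all 4 arrays, the limma unadjusted p was 0.053 with median scaling, 0.056 with no filter, 0.056 with an intensity trend and 0.25 with normexp. The methods' t-test gave an unadjusted p of 0.11. It was -0.91 without the second Meis1-KO array. Without the first it was -1.73 and met the criteria (limma unadjusted p = 0.0086), but that fit takes its spread from the Meis1-WT arrays, with the lone Meis1-KO array assumed to vary like them, and it called 7.76% of all probes lower and 2.35% higher. With normexp background correction it was -0.28, at -0.41 on slide 1 and -0.15 on slide 2. The common isoform *Cox6a1* (A_51_P311540, mm9 chromosome 5, 115795726 to 115795785) read 5.33 and 6.83 against 5.61 and 6.11, which overlap. The probes of *Cox6a1* and *Cox6a2*, 60 bases each, share no run longer than 4 bases. Whether either probe binds other transcripts was not tested.

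The other tissue isoforms did not follow *Cox6a2*. *Cox7a1*, the heart and muscle isoform of subunit VIIa, read -2.36 and -0.91 against -2.14 and -2.68. It was high only on the second Meis1-KO array, as its common partner *Cox7a2* was (4.64 and 6.07 against 4.87 and 4.73). *Cox4i2*, known as a lung isoform, read -4.06 and -2.82 against -4.16 and -3.72, and it was not well above background on the second Meis1-WT array. *Cox6b2*, known as a testis isoform, read 2.17 and 2.64 against 2.33 and 2.19, again with the second Meis1-KO array the highest. *Cox7b2*, *Cox8b* and *Cox8c* were not well above background on any array, so no difference is given for them. No probe carried the name *Ndufa4l2*.

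**Figure D4:**
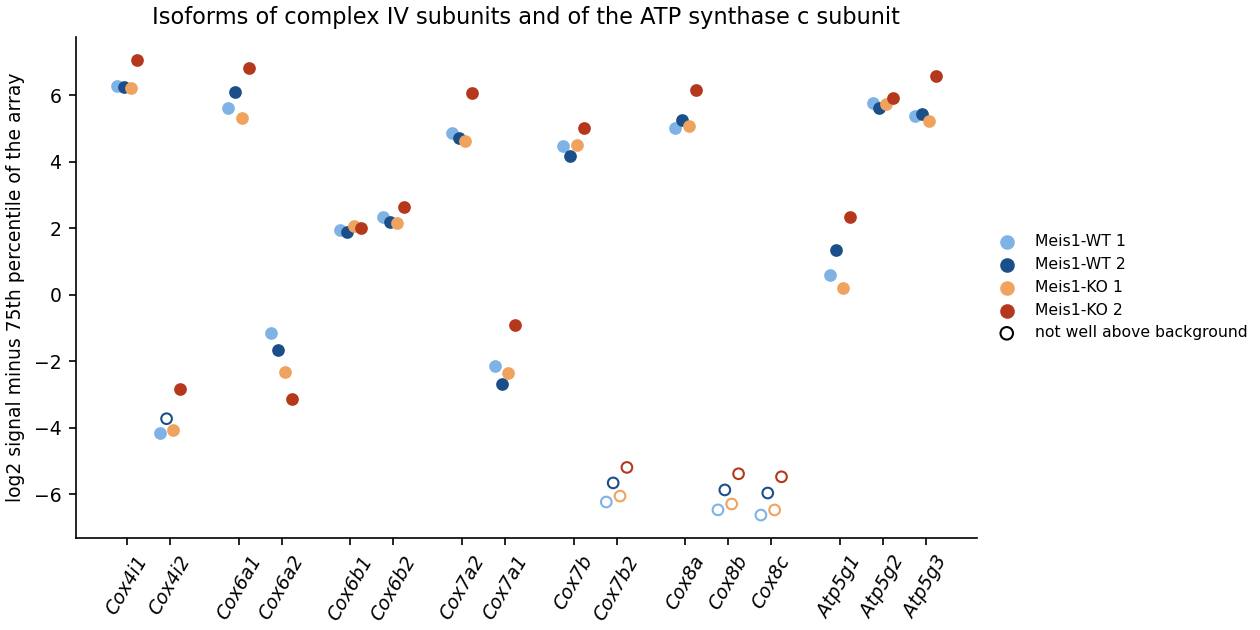
Log2 signal minus the 75th percentile of the array (vertical axis) of isoform genes of complex IV and of the ATP synthase c subunit (horizontal axis) on each of the 4 arrays, with open circles where the spot was not well above background. *Cox6a2* is the gene whose Meis1-KO values (-2.32 and -3.13) both lie below its Meis1-WT values (-1.15 and -1.66), and *Cox7b2*, *Cox8b* and *Cox8c* are open on all arrays.

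Complex V consists of the catalytic F1 head and the proton-conducting Fo part with its stalks. All 15 genes were higher on slide 2 (median 1.08) and 13 were lower on slide 1 (median -0.05). *Atp5a1*, the alpha subunit, read 7.21 and 8.00 on the Meis1-KO arrays and 7.19 and 7.13 on the Meis1-WT arrays. *Atp5b*, the beta subunit that holds most of the catalytic site, read 6.98 and 7.02 against 7.03 and 6.83, so its brightest probe had the smallest slide 2 difference of the F1 genes (0.19). This depended on the probe, as another for the same transcript (A_52_P328078) was 0.72 higher on slide 2 and 0.06 on slide 1, whereas the dimmest (A_52_P553841) was 0.17 and 0.05 higher. In the central stalk, *Atp5c1* (gamma), *Atp5d* (delta) and *Atp5e* (epsilon) were higher on slide 2 by 1.10, 0.70 and 1.44 and lower on slide 1 by small amounts (-0.10 to -0.03). Of the peripheral stalk, *Atp5f1*, subunit b, read 4.92 and 6.10 against 4.84 and 4.84, above both Meis1-WT arrays on both slides, and *Atp5o*, which joins the stalk to the head, read 3.39 and 5.0 against 3.46 and 3.58. The first Meis1-KO array was within 0.10 of its partner for both. The ring of c subunits is encoded by 3 genes with the same mature product. *Atp5g2* read 5.74 and 5.92 against 5.76 and 5.60, *Atp5g3* read 5.23 and 6.57 against 5.39 and 5.42, and *Atp5g1* read 0.21 and 2.33 against 0.59 and 1.36. *Atp5g3* and *Atp5g1* were higher on slide 2 by 1.15 and 0.97, and the brightest probe of *Atp5g2* by 0.32. Another probe for the same *Atp5g2* transcript (A_52_P287002) had the opposite sign, at -0.23 on slide 1 and -0.12 on slide 2. The difference between these genes was not tested.

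The 8 genes that encode no subunit had a median difference of 0.21 on slide 2 and 0.14 on slide 1. The slide 2 median was 0.03 with quantile normalization and -0.0023 with cyclic loess, and whether it differs from the subunits was not tested. The 4 *Ndufaf* assembly factors were higher in Meis1-KO cells on both slides, by 0.18 to 1.15 on slide 1 and by 0.04 to 0.35 on slide 2, where 30.3% of all probes were higher on both. Only 2 of the 4 stayed higher on both slides with quantile normalization or cyclic loess, and 3 with normexp. *Ndufaf1* read 1.15 and 1.02 against 0.68 and 0.80, and *Ndufaf4* read 2.79 and 3.01 against 2.60 and 2.66. For these both Meis1-KO arrays lay above both Meis1-WT arrays. *Ndufaf3*, a dim probe, read -2.77 and -2.45 against -3.92 and -2.65, and *Ndufaf2* read 4.32 and 4.60 against 4.12 and 4.56, with overlap in both. None was called (differences of 0.12 to 0.68).

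The slide 2 difference went with the brightness of probes. Over all tested probes, the median difference on slide 2 went from -0.49 in the dimmest decile to 0.63 in the brightest, whereas on slide 1 it went from 0.06 to -0.02. The 54 genes of the set in the brightest decile had a median of 1.15 on slide 2 and -0.07 on slide 1. The 15 genes in the decile below had a median of 0.70, where all probes of that decile had 0.39. The share of brightness in the difference of the set was not tested.

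**Figure D5:**
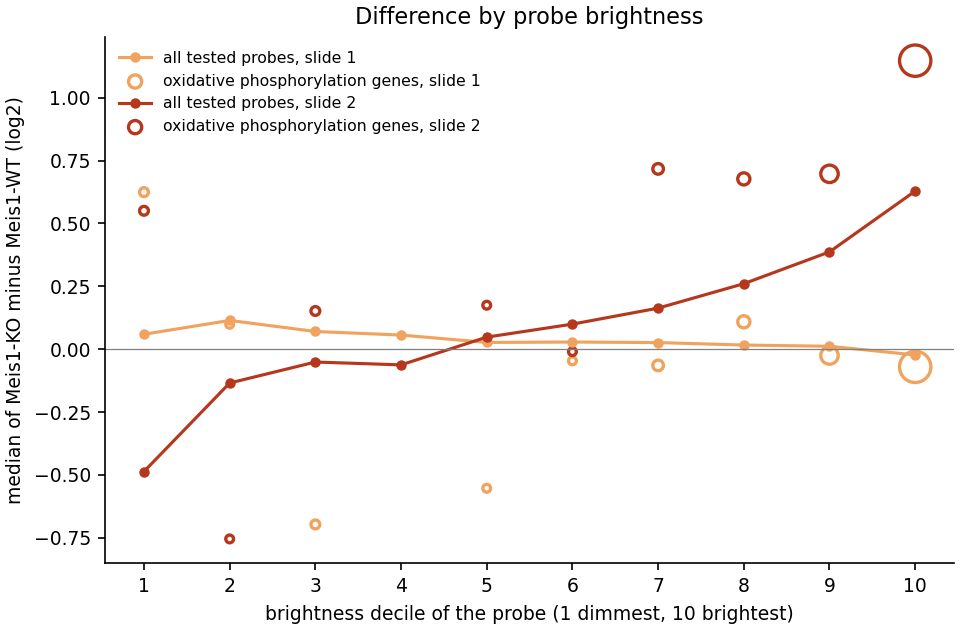
Median difference between Meis1-KO and Meis1-WT (vertical axis, log2) by brightness decile of the probe (horizontal axis), for all tested probes (lines) and the oxidative phosphorylation genes (open circles, whose area grows with the number of genes). On slide 2 the line climbs from -0.49 to 0.63 and the circle of the 54 brightest genes lies at 1.15, whereas on slide 1 both stay near 0 in the bright deciles.

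Related mitochondrial genes were also high on the second Meis1-KO array. Of the 13 subunits encoded in mitochondrial DNA, 4 had probes: *mt-Nd4*, *mt-Cytb*, *mt-Co2* and *mt-Atp6*. They were 0.15 to 0.22 lower on slide 1 and 1.07 to 1.45 higher on slide 2. *mt-Co2*, a catalytic subunit of complex IV, read 7.70 and 9.33 on the Meis1-KO arrays and 7.88 and 7.88 on the Meis1-WT arrays, which places the high value on the same single array as for the nuclear subunits. The 75 mitochondrial ribosomal proteins, which translate those subunits, had medians of 0.01 and 0.91, and 72 of them were highest on the second Meis1-KO array. On slide 1 they lay on both sides of 0, with 41 of 75 higher, and 40 were higher on both slides, against 30.3% of all probes. The 36 tested assembly factors with other names (medians -0.03 and 0.79) and 8 genes that share these families under other names (-0.01 and 1.08) also had medians near 0 on slide 1 and higher on slide 2. Without the second Meis1-KO array, the medians were -0.21 for the mitochondrially encoded subunits, -0.03 for the ribosomal proteins, -0.04 for the assembly factors and 0.11 for the genes under other names. Among the assembly factors, *Sdhaf3*, needed for complex II, read -0.41 and -0.09 against -1.15 and -1.08. Both Meis1-KO arrays lay above both Meis1-WT arrays for it, as for 9 of the 36 assembly factors, against 16% of all probes. No gene of these lists was called.

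The citric acid cycle and pyruvate dehydrogenase genes, which supply NADH and succinate, had medians of 0.08 on slide 1 and 0.43 on slide 2. Of these 18 genes, 12 were higher on both slides, against 30.3% of all probes. Differences between the lists were not tested. Genes of the switch between lactate and mitochondrial pyruvate had medians of -0.09 and 1.01 over 8 tested genes. *Pdk2*, a kinase that inhibits pyruvate dehydrogenase, read 0.61 and -0.28 against 1.00 and 0.42 and was the gene of that list lower on both slides. Regulators of mitochondrial biogenesis had the smallest slide 2 median of these lists, 0.23 over 15 genes. Among them *Ppargc1b*, a coactivator of mitochondrial genes, read -2.04 and -2.57 on the Meis1-KO arrays and -1.40 and -1.07 on the Meis1-WT arrays. These did not overlap, but the gene was not called (-1.07 ± 0.45, SE; limma unadjusted p = 0.056, adjusted p = 0.98). *Pprc1*, a related coactivator, read 0.19 and -1.07 against 0.53 and 0.14, lowest on the second Meis1-KO array. *Esrra*, a nuclear receptor that acts with them, read -2.49 and -0.58 against -2.53 and -1.95, highest on that array. Without the second Meis1-KO array, the medians of the citric acid cycle genes, the pyruvate genes and the regulators were 0.05, -0.10 and -0.09. No gene of these lists was called either.

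Markers of LSK cells and early progenitors (*Kit*, *Ly6a*, *Cd34*, *Slamf1* and *Cd48*) were well above background on all 4 arrays, and their summed signal, in multiples of the 75th percentile, was 60.7 and 87.4 on the Meis1-KO arrays and 74.4 and 52.7 on the Meis1-WT arrays. Markers of other cells differed between arrays as well. Summed over 8 erythroid markers, the signal was 99.5 and 246 on the Meis1-KO arrays and 87.6 and 23.4 on the Meis1-WT arrays, with 5 of the 8 well above background on the second Meis1-KO array. *Hbb-b1*, beta globin, read 6.55 and 7.93 against 6.30 and 4.46. The highest erythroid sum, like that of the LSK markers, was on the array with the highest oxidative phosphorylation values, but the erythroid sum was carried by *Hbb-b1*. Of the 6 tested erythroid markers, 3 were highest on that array, and 3 were higher and 3 lower over both slides. *Hba-a1*, alpha globin, read 1.83 and -2.05 against 2.57 and -2.24. Sums of 12 granulocyte and monocyte markers were 185 and 141 against 199 and 76.2, those of 4 megakaryocyte markers 5.05 and 9.65 against 7.64 and 31.2, those of 8 B lineage markers 11.7 and 8.63 against 18.4 and 7.46, and those of 4 plasma cell markers 2.92 and 22.2 against 22.9 and 11.4. T lineage markers stayed under 1 on every array, with 1 to 3 of 6 well above background. In these lists *Rhag* (an erythroid membrane protein, 1.73 ± 0.47 higher, SE) and *Elane* (neutrophil elastase, a difference of -1.57 ± 0.42, SE) were called, with a limma adjusted p of 0.98 each. Their part in the oxidative phosphorylation values was not tested, and in such bulk RNA more cells of a type and more RNA per cell cannot be told apart.

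Promoters were read for what the genes share beyond their names, since subunits of all complexes were high together on the second Meis1-KO array. The reference table held promoters (250 bases before to 50 after the start, RefSeq, GRCm38.p6) for 74 of the 89 genes, 80 promoters in all. *Cox6a2* was among those with none. Motifs were searched on both strands. The full consensus of nuclear respiratory factor 1 (NRF1), a regulator of respiratory genes, was found in 8.75% of these promoters and in 1.27% of all 32851 promoters. The ETS motif bound by GABP (CCGGAAG) was found in 21.2% and 8.86%, a core of the YY1 motif (AAGATGG) in 16.2% and 6.34%, and a TATA box (TATAAA) in 10% and 13.6%. These shares depended on the letters. A first search, with a shorter NRF1 core and a YY1 motif longer by 4 letters, had given 23.8% and 4.60% for NRF1 and 7.5% and 0.633% for YY1. No matches of different motifs overlapped in the 80 promoters. Promoters with an NRF1 match from complexes II, I and V are shown, the first and second of genes more than 2-fold higher on slide 2 and the third of one whose probes differed in sign. The 250 bases before the start are given 5' to 3' on the gene's strand, with NRF1 and ETS matches on either strand in capitals.

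Sdhd (chr9:50603850-50604099, minus strand): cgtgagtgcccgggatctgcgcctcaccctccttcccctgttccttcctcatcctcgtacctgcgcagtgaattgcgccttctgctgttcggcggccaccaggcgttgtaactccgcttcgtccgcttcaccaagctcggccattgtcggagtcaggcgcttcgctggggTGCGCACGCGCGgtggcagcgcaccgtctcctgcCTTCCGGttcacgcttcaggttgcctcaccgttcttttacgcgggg

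Ndufb4 (chr16:37654369-37654618, minus strand): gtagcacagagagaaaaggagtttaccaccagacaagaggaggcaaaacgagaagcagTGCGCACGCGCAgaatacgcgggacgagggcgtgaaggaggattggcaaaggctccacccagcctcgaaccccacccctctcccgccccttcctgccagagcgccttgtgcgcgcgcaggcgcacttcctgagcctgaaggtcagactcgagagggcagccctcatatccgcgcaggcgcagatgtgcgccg

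Atp5g2 (chr15:102671048-102671297, minus strand): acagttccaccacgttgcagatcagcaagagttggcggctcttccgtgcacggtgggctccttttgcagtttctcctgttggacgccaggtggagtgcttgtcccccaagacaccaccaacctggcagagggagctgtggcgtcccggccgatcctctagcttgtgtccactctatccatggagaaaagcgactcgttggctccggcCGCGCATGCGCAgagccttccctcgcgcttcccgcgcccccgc

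*Sdhd* holds 1 NRF1 match and 1 ETS match, and *Ndufb4* and *Atp5g2* hold 1 NRF1 match each. These are matches of letters, and binding was not measured. *Sdhd*, *Ndufb4* and *Atp5g2* differed by 1.33, 1.08 and 0.32 on slide 2 and by -0.07, 0.07 and -0.02 on slide 1. The genes with and without a match had like medians: for NRF1, the median difference on slide 2 was 1.08 for the 7 tested genes with a match and 1.08 for the 65 without (1.08 and 1.08 with the shorter core), and for ETS it was 1.09 (17 genes) and 1.06 (55 genes). Of the regulators themselves, *Nrf1* read 0.57 and 0.27 on the Meis1-KO arrays and 0.15 and 0.50 on the Meis1-WT arrays, with opposite signs on the slides (0.42 and -0.24), and *Gabpa* read 3.08 and 3.50 against 2.96 and 3.28, with overlap in both.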

How the data were processed

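Genotype and replicate of the 4 one-color Agilent arrays came from the labels. The authors deposited, for each array, the intensity of every spot as written by Feature Extraction (9.5.3.1 in the file headers, 9.1 in the submitters' processing notes), background-subtracted and detrended, with no scaling between arrays. A deposited series table repeats these intensities to within 0.6 percent. Probe positions are on mm9, as in the file headers, and exon annotation was not used here. The brightest probe of all 89 genes matched a RefSeq symbol.

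Here, control and outlier spots were dropped and replicate spots averaged. Values are log2 of the processed intensity after subtraction of the 75th percentile of the array. Testing required detection (well above background) on both arrays of either genotype and a value on every array, leaving 22007 probes. The comparison used limma 3.58.1 (lmFit, eBayes; R 4.3.3), with Benjamini-Hochberg adjustment over all tested probes. On simulated arrays of 22007 probes, 98% of 200 probes given a log2 change of 3 were called, as were 220 of the unchanged probes. The measured arrays gave 161 called probes in all. No smaller change was simulated, so how often a difference of the size seen in the set would be called is not known. The number of arrays limits the precision, and p-values measure only the spread between these 4 arrays.

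Replicates with the same number shared a slide, as the file headers record, and their deviations from the genotype means correlated at 0.266 across probes. The slide as a block was an alternative, as were median, quantile and cyclic loess scaling, normexp with an offset of 50, the authors' table, no filter, detection on every array, outlier spots retained, the methods' t-test, an intensity trend, the mean over probes of a gene and 1 array left out in turn. Added after the data had been seen were the set without the 8 genes that encode no subunit, the list of 8 genes under other names, and the motifs, of which the NRF1 and YY1 letters were changed after a first search with other letters, when match shares were known. Genes named are subunits listed as core, isoform pairs, genes whose probes disagree and the largest changes of other lists. The largest differences with 1 sign on both slides in complexes I, III, IV and V (complex III had none) are named too. *Ndufa5*, *Ndufb9*, *Ndufa10*, *Ndufb4*, *Esrra*, *Nrf1*, *Gabpa* and the genes that encode no subunit were named after their values were seen. One gene of the set is counted but not reported by itself here. Members and lists were chosen with earlier results of these data known.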

Additional observations from a re-analysis of the deposited data

How the results depend on the processing

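No gene of the set was called under any alternative in which all 4 arrays were kept. When the first Meis1-KO array was left out, *Cox6a2* was called lower and *Ndufa5*, *Ndufb5*, *Ndufb8*, *Ndufb9* and *Ndufs3* higher, so that leaving out 1 array in turn gave 0 to 5 genes called higher and 0 to 1 lower. The fit without that array, in which the lone Meis1-KO array is assumed to vary like the Meis1-WT arrays, called 2.35% of all probes higher and 7.76% lower. The median difference of the set was 0.20 to 0.57 under the alternatives with all arrays and 0.50 over the 78 subunit genes alone, and it ranged from -0.09, without the second Meis1-KO array, to 1.09, without the first.

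Over all tested probes, 131 were called lower and 30 higher. These counts were 303 and 128 with the slide as a block, 46 and 2 with normexp, 43 and 11 with the filter on all 4 arrays, 23 and 7 with the methods' t-test and 85 and 16 with an intensity trend, and 101 were higher with no filter. Leaving out 1 array in turn gave 57 to 1707 lower, the highest without the first Meis1-KO array, and 34 to 518 higher. The block changed no call in the set.

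Of all 86 genes, 51 of the 81 higher ones turned lower without the second Meis1-KO array. Among the 42 tested genes that the naming rule gave, the difference changed sign as follows, and the cause was not tested. With cyclic loess, these were *Sdha* (-0.016), *Atp5b* (-0.32), *Cox6a1* (-0.12), *Cox6b1* (-0.030), *Cox6b2* (-0.026) and *Atp5g2* (-0.18). With the mean over probes, these were *Sdha* (-0.43), *Atp5g2* (-0.014) and *Ndufb8* (-0.034). The means of *Sdha* and *Ndufb8* include their dim cDNA clone probes, which were not well above background on the second Meis1-KO array. With median scaling, this was *Ndufs8* (0.055). With normexp, these were *Ndufs8* (0.038), *Sdha* (-0.0062), *Atp5b* (-0.15), *Cox6b1* (-0.035), *Cox6b2* (-0.019) and *Atp5g2* (-0.076). With quantile normalization, these were *Atp5b* (-0.26), *Cox6a1* (-0.16), *Cox6b2* (-0.0083) and *Atp5g2* (-0.14). With 1 array left out in turn, the difference ranged across 0, among these 42, for *Atp5b* (-0.032 to 0.17), *Atp5d* (-0.25 to 0.86), *Atp5e* (-0.076 to 1.48), *Atp5g1* (-0.77 to 1.36), *Atp5g3* (-0.18 to 1.17), *Atp5o* (-0.13 to 1.48), *Cox4i1* (-0.064 to 0.80), *Cox4i2* (-0.12 to 1.12), *Cox5b* (-0.14 to 0.91), *Cox6a1* (-0.53 to 0.97), *Cox6b2* (-0.089 to 0.38), *Cox7a2* (-0.16 to 1.28), *Cox8a* (-0.059 to 1.01), *Cycs* (-0.044 to 0.81), *Ndufa4* (-0.28 to 1.39), *Ndufb6* (-0.16 to 1.73), *Ndufb8* (-0.12 to 1.63), *Ndufs3* (-0.26 to 1.95), *Ndufs8* (-0.32 to 0.26), *Ndufv1* (-0.14 to 1.48), *Ndufv2* (-0.14 to 0.86), *Sdhb* (-0.13 to 0.72), *Sdhc* (-0.033 to 0.91), *Sdhd* (-0.088 to 1.34), *Uqcrb* (-0.16 to 1.19), *Uqcrc1* (-0.31 to 1.03) and *Uqcrq* (-0.22 to 1.44).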
